A study of Rattus norvegicus with 9 samples.

Results

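The genes described here are 9 markers of T and B lymphocytes, chosen by symbol among the 17602 genes of the rat expression table. All 9 were found once each under the symbols Cd3d, Cd3e, Cd3g, Cd4, Cd8a, Cd8b, Ms4a1, Cd79a and Cd79b, and all 9 were among the 16512 genes tested. The samples were wild-type male Lewis rats of 10 to 12 weeks, with 3 libraries in each of 3 groups. The Intact group was synovium, the lining of the joint, from around the medial meniscus of knees without surgery. The Sham group was the same tissue 1 week after the joint capsule had been opened and closed. In the pMx group, the anterior part of the medial meniscus had been removed (partial medial meniscectomy), and what was taken 1 week later was the tissue regrowing in its place, with the synovium around it trimmed away. The pMx libraries therefore differed from the Sham libraries in both the surgery and the tissue taken, and the part of each cannot be told apart. RNA integrity, as the study lists it, also differed between the groups without overlap, lowest in Intact and highest in pMx, the order of the CD8 genes and the reverse of that of the B cell genes, and its part in the results was not tested. The labels call the libraries biological replicates but do not say whether animals or knees were pooled.

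T cells recognize antigen through the T cell receptor, whose signal is carried into the cell by the CD3 chains. The co-receptors CD4 and CD8 bind MHC class II and class I molecules and mark helper and cytotoxic T cells. In the rat, monocytes and macrophages also carry CD4, and CD8 alpha is also found on NK cells. B cells signal through CD79A and CD79B, the partners of the surface immunoglobulin, and mature B cells carry CD20, the product of Ms4a1. Lymphocytes are a minor population of healthy synovium and collect there in inflammatory arthritis.

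Values are given as TPM, the share of a transcript among all transcripts of its library after correction for length, which summed to 1000000 or, in 1 library, 999999. The number of genes above 0 TPM was 15644 to 16125 per library, and the read depth behind the values is unknown. Markers of synovial fibroblasts were present in every library, with Prg4 at 1084.36 TPM or more, and the sum of 8 such markers was 7564 to 10917 TPM in Intact, 14696 to 17603 TPM in Sham and 34405 to 37856 TPM in pMx. Of these 8 genes, 4 rose and 2 fell in Sham versus Intact (median log2 fold change 0.73), beside 6.73% and 5.97% of all genes. In pMx versus Sham 3 rose and 3 fell (median 0.02), beside 17.7% and 18.9%. In pMx versus Intact 3 rose and 4 fell (median -0.34), beside 23.4% and 27.1%. Intact replicate 3 stood apart in skeletal muscle genes, whose 10 markers summed to 42445 TPM there and to 58.1 to 2958 TPM in the other libraries. Adipocyte markers also split by group, from 3608 to 9202 summed TPM in the Intact and Sham libraries to 404 to 667 in the pMx libraries. In these bulk samples fewer cells of a type and less RNA per cell cannot be told apart.

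The members differed in how they moved between the groups of animals. The mean of each CD3 gene was highest in the Sham group, though Cd3g alone of them passed in pMx versus Sham, the CD8 genes rose from Intact to Sham and again to pMx, and the B cell genes were lowest in the pMx group. In pMx versus Sham, 2 members rose (Cd8a and Cd8b) and 4 fell (Cd3g, Ms4a1, Cd79a and Cd79b) at an adjusted p below 0.05 from limma, against a background of 17.7% of all genes tested rising and 18.9% falling. In Sham versus Intact, 4 members rose (Cd3e, Cd3g, Cd8a and Cd8b) and none fell, against 6.73% and 5.97% of all genes. In pMx versus Intact, 4 rose (Cd3e, Cd3g, Cd8a and Cd8b) and 3 fell (the B cell genes), against 23.4% and 27.1% of all genes. With the added condition that the log2 fold change exceed 1 in size, 1 member (Cd8b) was higher and 1 (Cd79a) lower in pMx versus Sham, where 3.36% and 4.85% of all genes were. In Sham versus Intact 3 members (Cd3e, Cd3g and Cd8b) met this condition upward and 0 downward, beside 1.42% and 0.533% of all genes. In pMx versus Intact 2 (Cd8a and Cd8b) met it upward and 3 (the B cell genes) downward, beside 6.40% and 7.89%. These counts rest on log2(TPM + 1). With 0.1 in place of 1, Cd8a, Ms4a1 and Cd79b also met the condition in pMx versus Sham (log2 fold changes 1.21, -2.17 and -1.96). Cd8a also met it in Sham versus Intact (1.35) and Cd3e in pMx versus Intact (1.68). The share of all genes that met it with 0.1 is not given here, so these additions have no background beside them. Groups without any overlap of libraries were found for 2 members higher and 6 lower in pMx versus Sham (27.0% and 29.0% of all genes), 6 higher and 1 lower in Sham versus Intact (14.2% and 16.4%) and 4 higher and 3 lower in pMx versus Intact (26.9% and 30.6%). The shares of all genes are large in both comparisons with pMx. The median log2 fold change over all genes tested was -0.01, -0.02 and -0.03 in these 3 comparisons. The comparisons share libraries, so they are not separate evidence. A total of 3 members and 4725 genes passed in pMx versus Sham without pMx replicate 2 and 3 members and 4937 genes without pMx replicate 3, in place of 6 and 6046. Only 2 members and 628 genes passed in Sham versus Intact without Sham replicate 2, in place of 4 and 2097.

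**Figure D1:**
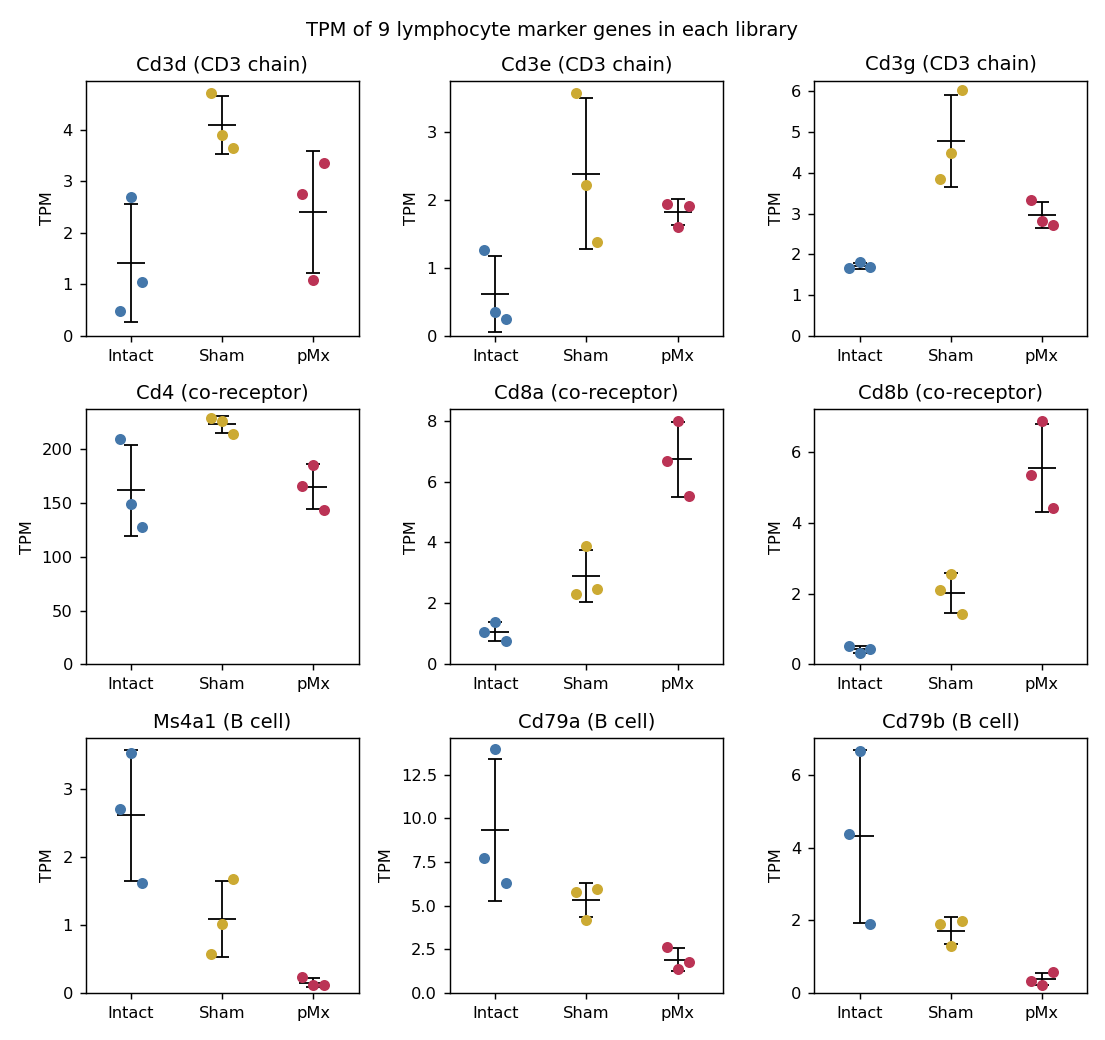
TPM (vertical axis, linear from 0) of each of the 9 genes in the Intact, Sham and pMx libraries. Points are libraries, and the bar and whiskers are the mean ± SD of 3 libraries. Cd8b sits between 4.42 and 6.87 TPM in pMx, above all Sham and Intact libraries, and Ms4a1 sits between 0.11 and 0.23 TPM in pMx, below all others.

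Promoter sequences are shown for 1 gene of each course, Cd3g, Cd8a and Cd79a, as the 250 bases before the start of transcription. They come from the RefSeq table of build GRCr8, in which 5 of the 9 members (Cd3d, Cd3e, Cd3g, Cd8a and Cd79a) were matched by symbol. Each is written 5′ to 3′ on the strand of the gene, and capitals mark a match to a searched motif.
Cd3g, chr8:54183919-54184168, minus strand: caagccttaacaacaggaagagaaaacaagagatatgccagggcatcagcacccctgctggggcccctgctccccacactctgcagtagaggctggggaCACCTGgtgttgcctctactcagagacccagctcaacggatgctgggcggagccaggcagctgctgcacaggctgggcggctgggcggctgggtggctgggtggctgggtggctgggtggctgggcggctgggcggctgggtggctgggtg
Cd8a, chr4:104923866-104924115, plus strand: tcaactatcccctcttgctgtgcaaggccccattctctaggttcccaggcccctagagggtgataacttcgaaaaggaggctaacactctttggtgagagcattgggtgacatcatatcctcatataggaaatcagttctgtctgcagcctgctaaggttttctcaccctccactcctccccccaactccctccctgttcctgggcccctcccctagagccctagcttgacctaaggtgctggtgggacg
Cd79a, chr1:89621210-89621459, plus strand: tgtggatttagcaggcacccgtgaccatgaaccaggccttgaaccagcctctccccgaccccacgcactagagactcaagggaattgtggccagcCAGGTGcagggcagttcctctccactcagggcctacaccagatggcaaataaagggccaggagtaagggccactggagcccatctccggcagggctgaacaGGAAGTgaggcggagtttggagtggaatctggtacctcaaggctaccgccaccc
The 6 motifs searched on both strands were GGAAGT (the core bound by ETS factors), TGTGGT (RUNX), CAGGTG (an E-box bound by E proteins), ATGCAAAT (the octamer), TATAAA (the TATA box) and CCCCGCCC (a GC box). GGAAGT was found in the windows of Cd79a, Cd3d and Cd3e, and 19.2% of all 33469 promoter windows of this length hold it. CAGGTG was found in the windows of Cd79a and Cd3g, and 15.9% of all windows hold it. No match to the other 4 motifs was found in the 5 windows, and the window of Cd8a held none of the 6. The RUNX core, the octamer, the TATA box and the GC box occur in 14.5%, 1.56%, 12.9% and 14.2% of all windows. Cd3d and Cd3g lie head to head on chromosome 8, with starts 1601 bases apart, and Cd3e starts 26251 bases from Cd3d.

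The CD3 genes encode the delta, epsilon and gamma chains of the T cell receptor complex. TPM values of Cd3g (gene identifier 300678) were 1.67, 1.81 and 1.7 for Intact, 3.84, 4.49 and 6.03 for Sham and 3.33, 2.83 and 2.73 for pMx. The 3 groups did not overlap, with Sham highest and Intact lowest. Its mean was 2.77-fold higher in Sham than in Intact (log2 fold change on the log2(TPM + 1) scale 1.07, standard error 0.14, adjusted p = 0.00499, limma). From Sham to pMx it fell by 0.53 on that scale (standard error 0.14, adjusted p = 0.0178, limma) and remained above Intact by 0.54 (adjusted p = 0.0120, limma). The fall from Sham to pMx no longer passed when pMx replicate 2 (adjusted p = 0.0579, limma) or pMx replicate 3 (0.0596) was left out.

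TPM values of Cd3e (gene identifier 315609) were 1.27, 0.35 and 0.25 for Intact, 3.58, 2.22 and 1.38 for Sham and 1.95, 1.61 and 1.92 for pMx. Every Sham and pMx library lay above every Intact library, and the Sham and pMx groups overlapped. The mean was 3.84-fold higher in Sham than in Intact (log2 fold change 1.07, standard error 0.27, adjusted p = 0.0397, limma) and 2.93-fold higher in pMx than in Intact (0.85, adjusted p = 0.0299). The call in Sham versus Intact was lost in 7 of the 9 fits that left out 1 library, with log2 fold changes of 0.82 to 1.08, and held without Intact replicate 1 or Sham replicate 3. It was also lost in the fit of the 6 libraries compared (adjusted p = 0.107, limma). With a pseudocount of 0.01 the log2 fold changes were 2.18 in Sham versus Intact and 1.89 in pMx versus Intact, since Intact values are below 1 TPM in 2 libraries. That in pMx versus Intact was lost without Intact replicate 2 or 3 (adjusted p = 0.0916 and 0.0837, limma) and without any 1 of the pMx replicates (0.0568 to 0.0803). For pMx versus Sham the log2 fold change was -0.21 (95% interval, not adjusted, -0.84 to 0.41, adjusted p = 0.593, limma).

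TPM values of Cd3d (gene identifier 25710) were 0.49, 2.69 and 1.04 for Intact, 4.72, 3.89 and 3.65 for Sham and 2.75, 1.08 and 3.36 for pMx. Sham lay above both other groups without overlap, and Intact and pMx overlapped. No comparison passed the test for Cd3d, with log2 fold changes of 1.18 in Sham versus Intact (95% interval, not adjusted, 0.36 to 2.00, adjusted p = 0.0667, limma), -0.65 in pMx versus Sham (-1.47 to 0.18, adjusted p = 0.199) and 0.53 in pMx versus Intact (-0.29 to 1.35, adjusted p = 0.252). Without Intact replicate 2, which had the highest Intact value, the adjusted p was 0.0353 in Sham versus Intact and 0.0476 in pMx versus Intact (limma). The log2 fold change of pMx versus Intact was 0.24 without Intact replicate 1 (adjusted p = 0.612), and that of pMx versus Sham was -0.33 without pMx replicate 2 (0.526). Summed over the 3 CD3 genes, the level was 3.76 ± 0.972 TPM in Intact, 11.3 ± 0.791 TPM in Sham and 7.19 ± 1.44 TPM in pMx (SD, n = 3 each).

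CD8 is made of an alpha and a beta chain, encoded by Cd8a and Cd8b. TPM values of Cd8b (gene identifier 24931) were 0.51, 0.33 and 0.43 for Intact, 2.10, 2.54 and 1.41 for Sham and 5.35, 6.87 and 4.42 for pMx. The 3 groups did not overlap. Its mean was 4.76-fold higher in Sham than in Intact (log2 fold change 1.07, standard error 0.17, adjusted p = 0.00946, limma) and 2.75-fold higher in pMx than in Sham (1.12, standard error 0.17, adjusted p = 0.00135). Between pMx and Intact the means differed 13.1-fold (log2 fold change 2.19, adjusted p = 1.89e-05, limma). Because the Intact values are below 1 TPM, this fold change depends on the pseudocount and was 3.68 with a pseudocount of 0.01.

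TPM values of Cd8a (gene identifier 24930) were 1.08, 1.38 and 0.76 for Intact, 2.31, 3.87 and 2.49 for Sham and 6.66, 8.0 and 5.52 for pMx. These groups did not overlap either. Its mean was 2.33-fold higher in pMx than in Sham (log2 fold change 0.999, standard error 0.19, adjusted p = 0.00379, limma), 2.69-fold higher in Sham than in Intact (0.90, adjusted p = 0.0213) and 6.27-fold higher in pMx than in Intact (1.90, adjusted p = 6.44e-05). With a pseudocount of 0.01 the log2 fold change of Cd8a was 1.42 in Sham versus Intact and 2.66 in pMx versus Intact. Only the rise from Intact to Sham was lost in some settings, without Sham replicate 2 (adjusted p = 0.0694, limma) and in the fit of the 6 libraries of that comparison (0.0552). All calls of Cd8a and Cd8b in pMx versus Sham and in pMx versus Intact held in each of the 17 alternative settings.

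The ratio of Cd8a to Cd8b was 1.77 to 4.18 in the Intact libraries, 1.10 to 1.77 in the Sham libraries and 1.16 to 1.25 in the pMx libraries. The Sham range contained the pMx range. Cd8a plus Cd8b relative to the summed CD3 genes was 0.353 to 0.464 in the Intact libraries, 0.353 to 0.605 in the Sham libraries and 1.24 to 2.69 in the pMx libraries. Each pMx library thus had more CD8 than CD3 transcript per length, and each Intact and Sham library had less. The 17 genes of the NK and cytotoxic list that were in the table summed to 17.7 to 30.5 TPM in the Intact, 27.1 to 33.2 TPM in the Sham and 13.5 to 23.5 TPM in the pMx libraries. Of the 16 tested, none rose and 1 fell in pMx versus Sham, beside 17.7% and 18.9% of all genes. The NK receptor gene Ncr1 stayed between 0.11 and 0.50 TPM in all libraries. Itgax encodes the integrin CD11c of dendritic cells and macrophages. Its mean was higher in each step, from 2.12 ± 0.471 to 7.45 ± 4.41 and 34.3 ± 2.20 TPM (SD, n = 3 each) in Intact, Sham and pMx. The rise from Sham to pMx passed (log2 fold change 2.20, adjusted p = 0.00116, limma). The test of Sham versus Intact is not given here for Itgax, and its Sham libraries varied widely. The dendritic cell list that holds Itgax did not move with it, since 1 of its 8 genes rose and 4 fell in pMx versus Sham, beside 17.7% and 18.9% of all genes, and its sum was 73.6 ± 12.1 TPM in Intact, 108 ± 4.56 TPM in Sham and 70.8 ± 7.84 TPM in pMx (SD, n = 3 each). The part of these cell types in the CD8 levels was not tested.

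TPM values of Cd4 (gene identifier 24932, by far the most abundant member) were 209.31, 149.36 and 127.56 for Intact, 229.57, 226.38 and 214.40 for Sham and 166.15, 185.45 and 143.71 for pMx. Sham lay above both other groups without overlap, and Intact and pMx overlapped. No difference passed the test, at log2 fold changes of 0.49 in Sham versus Intact (95% interval, not adjusted, 0.11 to 0.87, adjusted p = 0.0923, limma), -0.44 in pMx versus Sham (-0.82 to -0.06, adjusted p = 0.0710) and 0.05 in pMx versus Intact (-0.33 to 0.43, adjusted p = 0.830). Both of the first 2 passed when the TPM values were rescaled by median-of-ratios size factors (adjusted p = 0.0459 and 0.0413, limma). The difference between Sham and pMx also passed in the fit of those 6 libraries (adjusted p = 0.00871), under a block on replicate number (0.0484) and without Intact replicate 1 (adjusted p = 0.0125) or Intact replicate 3 (0.0285), and that between Sham and Intact without Intact replicate 1 (0.0125).

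Per length, Cd4 transcripts outnumbered the summed CD3 transcripts 17.9- to 61.0-fold in every library. Relative to Aif1, a gene of macrophages, Cd4 stayed between 0.805 and 1.00 over all 9 libraries, with means of 0.949 ± 0.0672 in Intact, 0.929 ± 0.0577 in Sham and 0.842 ± 0.0634 in pMx (SD, n = 3 each). Relative to Csf1r, the receptor for the macrophage growth factor M-CSF, it went down from 1.31 to 1.51 in Intact to 1.16 to 1.32 in Sham and 0.953 to 0.985 in pMx. All 15 genes of the macrophage and monocyte list were above 0 TPM in every library, and their sum was 3319 to 5537 TPM in Intact, 8148 to 9029 TPM in Sham and 8838 to 9286 TPM in pMx. Of these 15 genes, 7 rose and none fell in Sham versus Intact, beside 6.73% and 5.97% of all genes. From Sham to pMx 1 rose and 3 fell, beside 17.7% and 18.9%. How much of the Cd4 level came from macrophages was not tested.

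**Figure D2:**
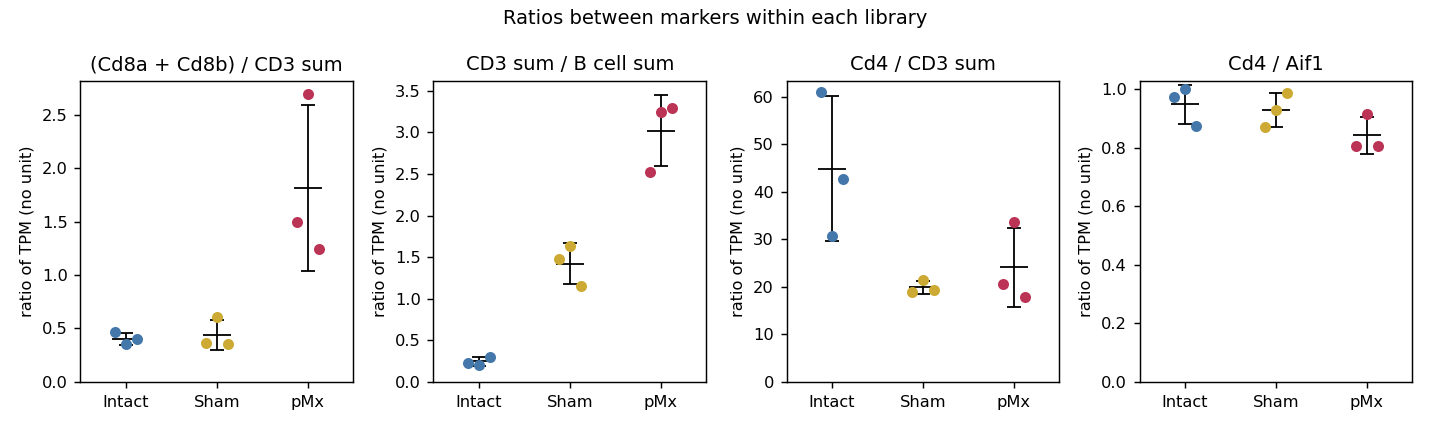
Ratios of TPM (no unit, linear axis from 0) within each library for Cd8a plus Cd8b over the summed CD3 genes, the CD3 genes over the B cell members, Cd4 over the CD3 genes and Cd4 over Aif1. Points are libraries, bars and whiskers the mean ± SD of 3 libraries. The CD8 to CD3 ratio is above 1 in the 3 pMx libraries alone, and the Cd4 to Aif1 ratio lies between 0.805 and 1.00 throughout. The ratio of Cd4 to Csf1r, another macrophage gene, is not drawn and was not steady, at 1.31 to 1.51 in Intact and 0.953 to 0.985 in pMx.

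Of the B cell members, Cd79a and Cd79b encode the signalling pair of the B cell receptor. TPM values of Cd79a (gene identifier 100913063) were 7.72, 13.98 and 6.31 for Intact, 5.76, 4.18 and 5.97 for Sham and 2.61, 1.36 and 1.75 for pMx. The 3 groups did not overlap, and pMx was lowest. Its mean was 2.78-fold lower in pMx than in Sham (log2 fold change -1.13, standard error 0.28, adjusted p = 0.0127, limma) and 4.90-fold lower in pMx than in Intact (-1.78, adjusted p = 7.63e-04). Sham versus Intact did not pass (-0.66, 95% interval, not adjusted, -1.29 to -0.03, adjusted p = 0.158, limma), and was -0.35 without Intact replicate 2 (adjusted p = 0.350). The calls of Cd79a in pMx versus Sham and pMx versus Intact held in all 17 alternative settings.

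TPM values of Cd79b (gene identifier 171055) were 4.38, 6.67 and 1.91 for Intact, 1.89, 1.28 and 1.97 for Sham and 0.34, 0.23 and 0.57 for pMx. All pMx libraries were below all others, while Intact and Sham overlapped through Intact replicate 3. The mean was 4.51-fold lower in pMx than in Sham (log2 fold change -0.97, standard error 0.31, adjusted p = 0.0377, limma) and 11.4-fold lower in pMx than in Intact (-1.85, adjusted p = 0.00121). With a pseudocount of 0.01 these log2 fold changes were -2.21 and -3.39. The call in pMx versus Sham was lost when any 1 of the 6 Sham and pMx libraries was left out (adjusted p = 0.0521 to 0.112, limma) and under a block on replicate number (0.0725). In Sham versus Intact the log2 fold change was -0.87 (adjusted p = 0.102, limma), and without Intact replicate 3 it was -1.25 (adjusted p = 0.00680) and without Intact replicate 2 it was -0.55 (0.231).

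TPM values of Ms4a1 (gene identifier 309217) were 2.70, 3.53 and 1.61 for Intact, 0.57, 1.02 and 1.68 for Sham and 0.23, 0.11 and 0.11 for pMx. It was the lowest of the 9 members in pMx, and every pMx value lay below every Sham value. The mean was 7.27-fold lower in pMx than in Sham (log2 fold change -0.83, standard error 0.23, adjusted p = 0.0225, limma) and 17.4-fold lower in pMx than in Intact (-1.62, adjusted p = 4.96e-04). The former log2 fold change was -2.73 with a pseudocount of 0.01, since the pMx values are far below 1 TPM. Its call was lost without Sham replicate 2 or 3 and without pMx replicate 2 or 3 (adjusted p = 0.0549 to 0.0767, limma). Sham versus Intact did not pass (-0.79, adjusted p = 0.0594, limma), but passed without Intact replicate 3 (adjusted p = 0.0174) or Sham replicate 3 (0.0402).

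**Figure D3:**
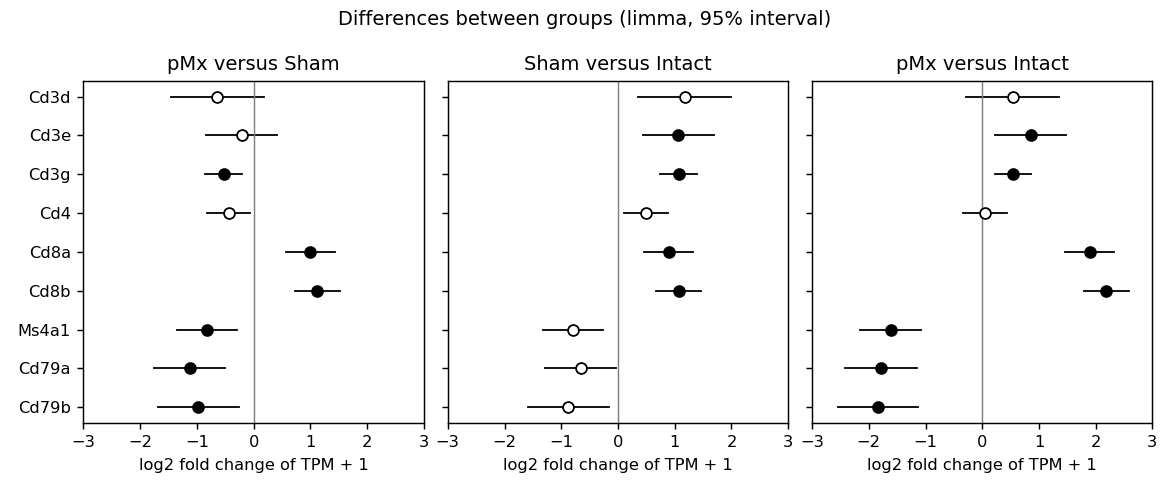
Log2 fold change on the log2(TPM + 1) scale (horizontal axis) of the 9 members in each comparison. Filled points have an adjusted p below 0.05 from limma, open points do not, and lines are unadjusted 95% intervals. Cd8a and Cd8b lie to the right of 0 in all 3 comparisons and the B cell genes to the left.

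The order of the levels changed between the groups. In the Intact group, the means after Cd4 ran from Cd79a (9.34 ± 4.08 TPM) and Cd79b (4.32 ± 2.38) through Ms4a1 (2.61 ± 0.963), Cd3g (1.73 ± 0.0737), Cd3d (1.41 ± 1.14) and Cd8a (1.07 ± 0.310) to Cd3e (0.623 ± 0.562) and Cd8b (0.423 ± 0.0902), with SD and n = 3 each. The mean ± SD of neighbours in that order overlapped except for Cd4 and Cd79a. In the pMx group Cd8a (6.73 ± 1.24 TPM) and Cd8b (5.55 ± 1.24) came next after Cd4, Cd3g (2.96 ± 0.321) and Cd3d (2.40 ± 1.18) followed, and Cd79b (0.380 ± 0.173) and Ms4a1 (0.150 ± 0.0693) were last. The ratio of the summed CD3 genes to the summed B cell members was 0.246 ± 0.0531 in Intact, 1.42 ± 0.248 in Sham and 3.02 ± 0.432 in pMx (SD, n = 3 each). These ratios did not overlap between the groups, and being taken within a library they do not depend on its scaling.

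The 4 hemoglobin genes Hbb, Hba-a1, Hba-a2 and Hba-a3, which mark blood, summed to 18924 to 36504 TPM in the Intact, 9444 to 14327 TPM in the Sham and 792 to 927 TPM in the pMx libraries. The 3 B cell members summed to 9.83 to 24.2 TPM, 6.48 to 9.62 TPM and 1.70 to 3.18 TPM in the same order. Per 1000 TPM of hemoglobin, this was 0.407 to 0.782 TPM in Intact, 0.618 to 0.870 TPM in Sham and 2.15 to 3.91 TPM in pMx. On this measure pMx was highest. The 10 marrow granulocyte genes, S100a8 and Camp among them, summed to 86.2 to 228 TPM in Intact, 62.3 to 71.0 TPM in Sham and 22.5 to 48.7 TPM in pMx. Of these 10 genes, none rose in any comparison, 5 fell in Sham versus Intact (median log2 fold change -0.82), 1 in pMx versus Sham (-0.19) and 7 in pMx versus Intact (-1.57), beside 5.97%, 18.9% and 27.1% of all genes. The medians of the 3 B cell members were -0.79, -0.97 and -1.78 in the same order. Elane was at 0 in 2 Sham libraries and all pMx libraries, and Ltf did not exceed 0.04 TPM anywhere. The part of blood or marrow in the B cell levels was not tested.

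**Figure D4:**
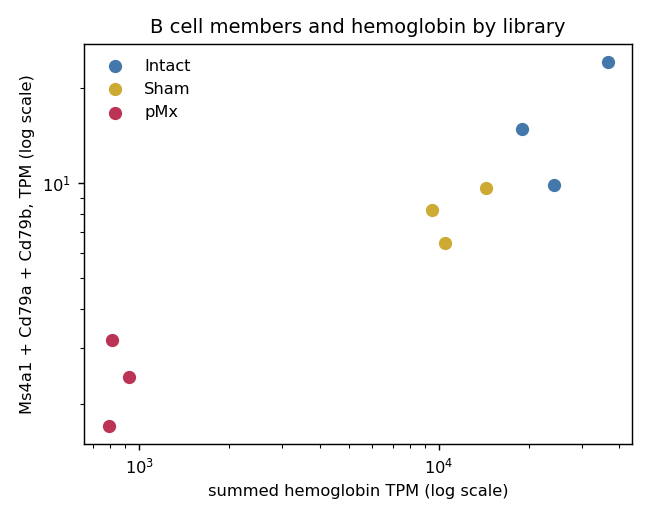
Summed TPM of Ms4a1, Cd79a and Cd79b against summed TPM of 4 hemoglobin genes, both on log axes, with 1 point per library. The pMx libraries lie at 792 to 927 TPM of hemoglobin and 1.70 to 3.18 TPM of the B cell members, below all Intact and Sham libraries on both axes.

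CD45, encoded by Ptprc, is carried by all leukocytes. It rose from 18.1 ± 4.57 TPM in Intact to 29.6 ± 1.88 TPM in Sham (SD, n = 3 each, log2 fold change 0.71, adjusted p = 0.0248, limma), a call lost in 3 of the 9 fits without 1 library and in the fit of 6 libraries, and was at 34.1 ± 2.80 TPM (SD, n = 3) in pMx. Of the 9 pan-leukocyte genes tested, 7 rose in Sham versus Intact, beside 6.73% of all genes, with a median log2 fold change of 0.71, while in pMx versus Sham none rose and 1 fell, beside 17.7% and 18.9%. Per 100 TPM of Ptprc, Cd3g was at 7.27 to 12.2 TPM in Intact, 12.4 to 22.0 TPM in Sham and 8.11 to 9.13 TPM in pMx. On this measure the Intact and pMx levels of Cd3g overlapped. Cd3d (2.13 to 15.6 in Intact and 12.9 to 15.2 in Sham) and Cd3e (1.79 to 5.53 and 5.03 to 11.5) overlapped between Intact and Sham. Cd8b, at 1.91 to 3.08, 5.14 to 8.41 and 14.2 to 19.7 TPM per 100 TPM of Ptprc, was higher in each step without overlap. Cd8a overlapped between Intact (4.70 to 7.99) and Sham (7.45 to 12.8) and was at 17.8 to 22.9 in pMx. Cd4 was lower in each step without overlap, at 864 to 915 in Intact, 740 to 781 in Sham and 456 to 532 in pMx, unlike its TPM, which was highest in Sham. Cd79a went from 33.6 to 80.9 in Intact to 13.8 to 21.8 in Sham and 3.90 to 7.16 in pMx.

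Of 24 genes listed for the T cell surface and receptor signalling, 20 were in the table and tested, and no values under the symbols Trac, Trbc1, Trbc2 and Trdc, the constant regions of the T cell receptor, were used here. In Sham versus Intact, 6 of the 20 rose and none fell, beside 6.73% and 5.97% of all genes, with a median log2 fold change of 0.29. The calls of Cd2, Lcp2, Lck, Zap70 and Lat were lost in 10, 8, 6, 6 and 3 of 17 alternative settings. That of Sit1 held in all 16 in which it was tested. In pMx versus Sham none rose and 3 fell, with a median of -0.07, and the share that fell was below the 18.9% of all genes. In pMx versus Intact 9 of the 20 rose and 2 fell, beside 23.4% and 27.1% of all genes, with a median of 0.31. Sit1, an adaptor that interacts with the T cell receptor pathway, rose from 0.380 ± 0.139 to 1.32 ± 0.210 TPM from Intact to Sham and fell to 0.763 ± 0.136 TPM in pMx (SD, n = 3 each, adjusted p = 0.00586 and 0.0192, limma). The latter call was lost with pseudocounts of 0.1 and 0.01 and in 4 of the 9 fits without 1 library. Lat, the adaptor phosphorylated after receptor engagement, was at 1.90 ± 0.883, 5.36 ± 0.555 and 8.17 ± 1.40 TPM (SD, n = 3 each), and its difference between pMx and Intact passed in all 17 alternative settings (log2 fold change 1.70, adjusted p = 3.76e-04, limma). Cd7 fell from 10.1 ± 1.16 TPM in Sham to 4.26 ± 0.813 TPM in pMx (SD, n = 3 each, adjusted p = 0.00821, limma). Lck and Zap70, the kinases that act on and bind the CD3 chains, had log2 fold changes of -0.18 and -0.16 in pMx versus Sham (adjusted p = 0.264 and 0.450, limma).

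Of 18 genes listed for T cell states and subsets, 16 were tested. In Sham versus Intact 3 rose (Icos, Il2ra and Il2rb) and none fell, beside 6.73% and 5.97% of all genes. The calls of Il2ra and Icos were lost in 12 and 5 of 17 alternative settings. In pMx versus Sham none rose and 3 fell, beside 17.7% and 18.9% of all genes, so the share that fell was near that of all genes. Il2rb, the beta chain of the interleukin 2 receptor, was at 0.43, 0.43 and 0.18 TPM in Intact, at 1.15, 1.08 and 0.95 TPM in Sham and at 0.88, 0.87 and 0.86 TPM in pMx. Its rise from Intact to Sham passed in each of the 16 alternative settings in which it was tested (log2 fold change 0.62, adjusted p = 0.00597, limma). Foxp3, the regulator of regulatory T cells, did not exceed 0.29 TPM in any library. In the NK and cytotoxic list, Gzma, which encodes a granzyme of cytotoxic cells, was at 1.34, 2.71 and 1.21 TPM in Intact and was listed at 0, 0.21 and 0 TPM in pMx (log2 fold change of pMx versus Intact -1.33, adjusted p = 0.00101, limma).

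Of 24 genes listed for the B cell surface and signalling, 22 were tested, and Ighm and Ighd were not used here. In pMx versus Sham 6 of the 22 fell and none rose, beside 18.9% and 17.7% of all genes, with a median log2 fold change of -0.26. In pMx versus Intact 8 fell and 2 rose, beside 27.1% and 23.4% of all genes. In Sham versus Intact 4 rose (Cd37, Blk, Blnk and Btk) and 1 fell (Pax5), beside 6.73% and 5.97%, and these 5 calls were lost in 6 of 17 alternative settings for Cd37, 12 of 17 for Blk, 4 of 17 for Blnk, 7 of 17 for Btk and 11 of 16 for Pax5. Pax5, the transcription factor that fixes B cell identity, was at 0.82, 1.37 and 1.24 TPM in Intact, at 0.59, 0.40 and 0.74 TPM in Sham and at 0, 0.11 and 0.04 TPM in pMx. The groups did not overlap (log2 fold change of pMx versus Sham -0.58, adjusted p = 0.00497, limma). Fcmr, the receptor for IgM, had the largest fall of the list from Sham to pMx on the log2(TPM + 1) scale. It went from 42.1 ± 5.99 TPM in Sham to 3.95 ± 1.05 TPM in pMx (SD with n = 3 in each, log2 fold change -3.13, adjusted p = 2.63e-05, limma). The log2 fold change of Fcmr in Sham versus Intact was 0.09 (adjusted p = 0.813, limma). Cxcr5, the receptor that guides B cells to follicles, fell from 4.06 ± 0.856 TPM in Sham to 1.60 ± 0.408 TPM in pMx (SD with n = 3 in each, log2 fold change -0.96, adjusted p = 0.00289, limma). The 2 genes that rose in pMx versus Intact were Blnk and Btk, which macrophages also express, with log2 fold changes of 1.30 and 0.70 (adjusted p = 0.00139 and 0.0114, limma).

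Precursor genes of the B cell were scarce. Of the 6 B cell precursor genes, Rag1 and Rag2 did not exceed 0.16 TPM and were not tested, and the 6 together summed to 0.150 to 2.98 TPM per library. The plasma cell gene Mzb1 stayed at or below 0.33 TPM. The 8 plasma cell genes in the table summed to 136 to 176 TPM in Intact, 159 to 221 TPM in Sham and 296 to 312 TPM in pMx, and 3 of the 8 rose (Sdc1, Prdm1 and Cd38) and 1 fell (Irf4) in pMx versus Sham, beside 17.7% and 18.9% of all genes. The calls of Prdm1 and Cd38 were lost in 12 and 3 of 17 alternative settings. Sdc1, which encodes syndecan-1 and is also made by other cells, was at 47.7 ± 9.71 TPM in Sham and rose to 114 ± 8.65 TPM in pMx (SD with n = 3 in each, log2 fold change 1.25, adjusted p = 7.90e-04, limma).

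**Figure D5:**
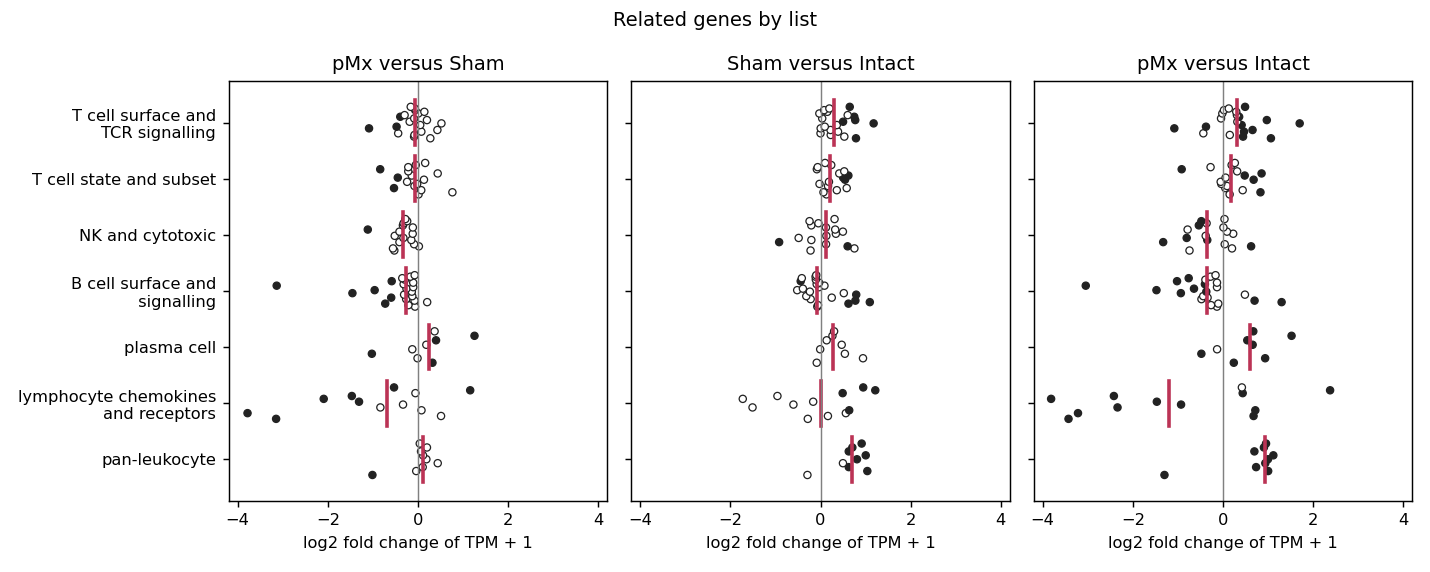
Log2 fold change on the log2(TPM + 1) scale (horizontal axis) of each tested gene of 7 related lists in the 3 comparisons. Filled points have an adjusted p below 0.05 from limma and vertical bars are list medians. The pan-leukocyte genes are shifted to the right in Sham versus Intact (median 0.71), and the chemokine list holds the largest falls in pMx versus Sham.

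Of 12 chemokines that attract lymphocytes and their receptors, 6 fell and 1 rose in pMx versus Sham, beside 18.9% and 17.7% of all genes, with a median log2 fold change of -0.68. In pMx versus Intact 7 fell and 4 rose (Ccl20, Cxcr3, Cxcr4 and Ccr6), beside 27.1% and 23.4% of all genes. Ccl21 and Ccl19, ligands of CCR7 that guide T cells, fell from 278 ± 33.3 to 21.0 ± 9.97 TPM and from 15.8 ± 4.14 to 0.873 ± 0.283 TPM (SD with n = 3 in each, log2 fold changes -3.78 and -3.15, adjusted p = 8.21e-05 and 2.63e-05, limma). Cxcl13, the ligand of CXCR5, was at 252.5, 155.41 and 125.14 TPM in Intact, at 51.64, 30.83 and 81.7 TPM in Sham and at 9.52, 22.15 and 6.37 TPM in pMx. Its 3 groups did not overlap. Of all genes, 16.4% were lower without overlap in Sham versus Intact and 29.0% in pMx versus Sham. The fall of Cxcl13 from Sham to pMx passed (log2 fold change -2.09, adjusted p = 0.00969, limma). In Sham versus Intact none of the 12 genes fell by the test and 4 rose, beside 5.97% and 6.73% of all genes. The receptor gene Cxcr4 rose in both steps, from 9.66 ± 0.403 in Intact to 24.2 ± 6.26 in Sham and 54.6 ± 7.51 TPM in pMx (SD, n = 3 each, adjusted p = 0.00594 and 0.00107, limma), while its ligand Cxcl12 fell from 240 ± 3.67 TPM in Sham to 96.4 ± 6.69 TPM in pMx (SD, n = 3 each, adjusted p = 1.08e-04).

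Among the members, Cd8a and Cd8b were the most alike over the 9 libraries (Pearson r of log2(TPM + 1) = 0.98), followed by Cd79a and Cd79b (0.96), Ms4a1 and Cd79b (0.95) and Ms4a1 and Cd79a (0.94). The CD3 genes were less alike, at 0.72 for Cd3d and Cd3g, 0.63 for Cd3e and Cd3g and 0.52 for Cd3d and Cd3e. These values are descriptions over 9 libraries that fall into 3 groups, so genes with the same order of groups have a high r. Among the 13203 other genes with a mean of at least 1 TPM, those most like Cd8a were Fam171a2, Fzd2 and Emb (r = 0.99 each), and those most like Cd8b were Bnc2, Ccne2 and Zfp469 (0.99 each). Cd4 was most like Apbb1ip, RGD1559575 and Ccr2 (0.97, 0.96 and 0.96), and Cd3e was most like Kcnk13, Snx20 and Igsf7 (0.97, 0.96 and 0.96). Ms4a1 was most like Rnf114, Cd79a most like Rras and Cd79b most like Zfp512 (0.99 each). Cd3g and Cd3d had lower best values, 0.95 with Rplp1 and 0.89 with Cyb5r4.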

How the data were processed

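The authors deposited TPM values (length-corrected transcript shares, 2 decimals) of 9 rat libraries, 3 per group, prepared from poly(A) RNA with dUTP second strands and sequenced at BGI. The submitters' processing notes name HISAT2 2.0.4 and the build mRatBN7.2. The counting tool, annotation and filters are not given in the sources used here. TPM keeps no read number, so the error given is the spread between libraries, and p-values measure only such spread. An SD covers the 3 libraries of its group. In the main fit each p-value rests on the spread pooled over all 9 libraries, the group not compared included. That spread is drawn toward a trend over all genes. A rise in some genes lowers the TPM of others.

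The deposited TPM were transformed to log2(TPM + 1), and genes not detected in at least 3 libraries were dropped, which left 16512. All 9 libraries were fitted together in limma 3.58.1 under R 4.3.3 (eBayes with a mean-variance trend), two-sided, with Benjamini-Hochberg adjustment over all genes for each of 3 comparisons. A gene passed at an adjusted p below 0.05, and counts with a log2 fold change above 1 in size are given apart. The fit was tested on simulated data. Promoters were searched in Python 3.11.15 and figures drawn with Matplotlib 3.10.9.

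The members and gene lists were chosen with earlier results of these data known. The genes named are the members, genes of the lists and, for each member, the 3 genes with the highest Pearson r among those with a mean of at least 1 TPM. RefSeq GRCr8 tables supplied promoter sequences, whose build differs from that of the expression values. Other settings tried were no filter, a filter at a mean of 1 TPM, pseudocounts of 0.1 and 0.01, rescaling by median-of-ratios size factors, a fit of the 6 libraries compared, a fit without the trend, the replicate number as a block, and leaving out each library. Some genes of the lists are not reported here by name.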

Additional observations from a re-analysis of the deposited data

How the results depend on the processing

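Over 27 member results (9 genes in 3 comparisons) and 17 alternatives each, 416 of 459 values kept their direction and their side of the threshold, 28 lost the call, 12 gained one and 3 changed sign without a call on either side. For the other lymphocyte list genes that passed (112 results), 1622 of 1875 values kept their call, 253 lost it and 0 changed sign. The sign changes were those of Cd3e in pMx versus Sham without Sham replicate 1 (log2 fold change 0.0279) and of Cd4 in pMx versus Intact without Intact replicate 3 (-0.11) or pMx replicate 2 (-0.04). With each library left out, those log2 fold changes ranged from -0.44 to 0.03 for Cd3e and from -0.11 to 0.25 for Cd4. Among genes passing in Sham versus Intact, the fit of the 6 libraries compared gave 2 members and 687 genes in place of 4 and 2097, and leaving out each library gave 2 to 5 members and 628 to 2969 genes. In pMx versus Sham the counts ranged from 3 to 7 members and 4466 to 7482 genes with each library left out. The cause of these shifts was not tested.

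Under a block on the replicate number, 6, 4 and 7 members and 5901, 1585 and 8208 genes passed in pMx versus Sham, Sham versus Intact and pMx versus Intact, against 6, 4 and 7 members and 6046, 2097 and 8350 genes without it. The samples share only a number. Deviations of same-numbered pMx and Sham libraries from their group means correlated at 0.03, 0.37 and 0.48, and those of Sham and Intact at 0.00, -0.40 and -0.49, and not every library was most like that of its own number. Under the block Cd79b no longer passed in pMx versus Sham (adjusted p = 0.0725, limma) and Cd4 did (0.0484). The values below 1 TPM of Cd3d, Cd3e, Ms4a1, Cd79b, Cd8a and Cd8b, and an unknown depth, limit the precision of their folds.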
